A study of Homo sapiens with 12 samples.

Results

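The genes described here encode subunits of the oxidative phosphorylation machinery, measured in RCC4 cells. A gene was taken where its symbol was NDUFA, NDUFB, NDUFC, NDUFS or NDUFV with a number, SDHA to SDHD or CYC1, or began with UQCR, with COX4 to COX8 or with ATP5; NDUFAF assembly factors were not taken. The rule matched 87 protein-coding genes, of which 67 had a probe set of their own among the 11963 genes tested. Complex I had 27 of these, complex II 3, complex III 7, complex IV 14 and complex V 16. COXFA4 was counted with complex IV; it carried the symbol NDUFA4 before, and the other 66 matched by their current symbol. A further 6 genes (NDUFC2, NDUFS5, NDUFS8, UQCRH, UQCRHL and ATP5MF) were present only in probe sets listed for several genes, and 14 others, among them SDHB and UQCRFS1, were not analysed here.

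RCC4 is an established clear cell renal carcinoma line, and a single line was used. Cells received siRNA for 2 days and were then treated for 7 hours. The 4 groups, of 3 arrays each, were siTAZ with 1 µM erastin, non-targeting siRNA (siNT) with 1 µM erastin, siTAZ with DMSO, and siNT with DMSO. TAZ is here the Hippo pathway coactivator encoded by WWTR1, not the mitochondrial enzyme tafazzin, and erastin blocks cystine uptake and can bring on ferroptosis, an iron-dependent cell death. Silencing lowers a transcript without removing the gene, and off-target effects of the siRNA were not tested in the files used here.

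Oxidative phosphorylation takes electrons from NADH at complex I and from succinate at complex II, passes them through ubiquinone, complex III and cytochrome c to oxygen at complex IV, and uses the proton gradient built on the way to make ATP at complex V. A few core subunits of complexes I, III, IV and V are encoded in mitochondrial DNA, and all others, including every gene measured here, are nuclear. Clear cell renal carcinomas are known for low respiration, in part through stabilised hypoxia-inducible factors, and mitochondrial respiration has been linked to ferroptosis after cystine deprivation.

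All values are log2 probe set signals as deposited, and differences are log2 fold changes with their standard errors (SE) from one limma fit over 12 arrays. A gene was called where its Benjamini-Hochberg adjusted p over 11963 genes was under 0.05, and a p that misses this does not show that values did not differ. The replicates are biological triplicates according to the submitters. WWTR1 lay between 9.09 and 9.46 on the 6 siTAZ arrays and between 12.19 and 12.35 on the 6 siNT arrays. The renal and clear cell carcinoma markers PAX8, CA12 and VIM averaged 10.6, 10.4 and 13.5, while CA9 was not analysed here and LRP2, averaged 2.83. The silencing moved some of this list: 7 of 12 measured renal markers were called under erastin and 6 in DMSO. The silencing also called 28.2% of all genes under erastin and 28.6% in DMSO. Among the renal markers called were EPAS1, KRT18 and CA12. EPAS1, a hypoxia-inducible factor, fell by 1.38 in each medium. KRT18 fell by 1.01 under erastin and by 1.06 in DMSO, and CA12 rose by 0.76 and by 0.52. Markers of other cell types (blood, vessel and connective tissue) had means over 12 arrays from 2.31 to 6.43 for the 19 that were measured, and none was called in any comparison. A gene is called dim below where its mean was at or below 5.60, the 90th percentile of these 19 means, so that the number of dim markers is set by the definition. In RNA from a whole culture, fewer cells expressing a gene and less RNA per cell cannot be told apart.

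Of the 67 subunit genes, 65 were well above that level, with means from 9.29 to 13.2. The exceptions were COX6A2 and COX7A1, the heart and skeletal muscle isoforms of complex IV subunits, with means of 5.30 and 4.44; no fold change is given for either, and where they change a median or a count over all 67, the value over the other 65 is given too. The spread between replicates was small for the other 65: the median SD within a group was 0.0692, against 0.0999 over all genes, from 0.0277 for COX7C to 0.138 for NDUFA5. Signals of different probe sets are not compared with each other.

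The promoters of 58 measured members were in the sequence table, taken from RefSeq on GRCh38.p14, and 3 motifs known from respiratory chain genes were searched on both strands of the 250 bases before the annotated start. The core read by nuclear respiratory factor 1, a run of 10 letters whose sixth may be any base, was found in 11 of 58 members (19.0%), against 7.65% of 15843 protein-coding promoters. CCGGAAG, a core of ETS factors such as GABPA, was found in 14 of 58 (24.1%), against 11.8%. AAGATGGCG, a core of YY1, was found in 1 of 58 (1.72%), against 0.751%. The last letters of CCGGAAG can also begin AAGATGGCG, and a promoter could hold several motifs: 23 of 58 (39.7%) held at least 1, against 18.7% of coding promoters. A match is a description of letters and not a bound site. Sequences are shown for 4 genes whose signals are given in full below: ATP5ME and NDUFA3 with the first motif, NDUFS3 with the second, and NDUFB2 with none. Capitals mark the matches on either strand, all run 5′ to 3′ on the strand of the gene, and the last base lies just before the start.
ATP5ME promoter, chr4:674277-674526, minus strand: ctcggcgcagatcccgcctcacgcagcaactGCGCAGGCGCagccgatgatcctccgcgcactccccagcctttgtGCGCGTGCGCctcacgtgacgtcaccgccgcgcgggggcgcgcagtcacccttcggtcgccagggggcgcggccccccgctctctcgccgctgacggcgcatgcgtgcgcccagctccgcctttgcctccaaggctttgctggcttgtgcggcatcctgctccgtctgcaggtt
NDUFA3 promoter, chr19:54102605-54102854, plus strand: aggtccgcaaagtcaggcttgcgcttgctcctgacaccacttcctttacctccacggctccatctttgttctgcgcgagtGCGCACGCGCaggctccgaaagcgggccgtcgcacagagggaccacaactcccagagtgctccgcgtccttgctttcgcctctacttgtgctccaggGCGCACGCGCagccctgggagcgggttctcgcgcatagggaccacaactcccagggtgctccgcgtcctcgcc
NDUFS3 promoter, chr11:47578824-47579073, plus strand: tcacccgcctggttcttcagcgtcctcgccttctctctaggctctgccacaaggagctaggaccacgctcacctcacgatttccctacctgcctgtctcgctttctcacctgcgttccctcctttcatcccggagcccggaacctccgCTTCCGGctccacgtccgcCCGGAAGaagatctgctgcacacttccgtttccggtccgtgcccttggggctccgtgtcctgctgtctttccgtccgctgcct
NDUFB2 promoter, chr7:140696458-140696707, plus strand: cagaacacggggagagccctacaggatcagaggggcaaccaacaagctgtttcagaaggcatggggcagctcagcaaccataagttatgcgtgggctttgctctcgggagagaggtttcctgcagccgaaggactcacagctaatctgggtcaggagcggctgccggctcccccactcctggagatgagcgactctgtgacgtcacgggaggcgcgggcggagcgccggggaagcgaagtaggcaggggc
The ATP5ME and NDUFA3 windows each held 2 copies of the nuclear respiratory factor 1 core, and the NDUFS3 window held 2 copies of CCGGAAG, 1 on each strand. ATP5ME, NDUFA3 and NDUFB2 were higher in siTAZ cells and NDUFS3 was lower, as described next, so genes with and without a match were among those that rose.

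The first question was whether silencing TAZ moved these transcripts. Under erastin, 13 of 67 subunit genes rose and 1 fell in siTAZ cells relative to siNT cells, a share called of 20.9%, against 28.2% of all genes (15.6% upward and 12.6% downward). In DMSO, 3 rose and 2 fell, a share of 7.46%, against 28.6% of all genes (14.7% upward and 13.9% downward). Among the 2894 genes whose signal was at least that of the dimmest well-measured subunit, 44.1% were called under erastin and 45.3% in DMSO. No subunit reached a log2 fold change of 0.5 in either direction, a size that 7.41% of all genes passed under erastin and 7.46% in DMSO. The confidence intervals (95%) of the 65 well-measured members ran from −0.43 to 0.51 under erastin and from −0.43 to 0.42 in DMSO, so changes larger than these lie outside every interval.

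The median of the members lay slightly above 0 in both media. Their median log2 fold change was 0.0837 under erastin, where the median of all genes was 0.0057, and 0.0412 in DMSO, where that of all genes was −0.0137. Over the 65 well-measured members the medians were 0.0845 and 0.0412. In number, 48 of 65 were above 0 under erastin and 42 of 65 in DMSO. The siTAZ and siNT arrays did not overlap for 30 members that were higher and 5 that were lower under erastin, against 21.1% and 17.7% of all genes (38.8% in either direction). In DMSO this held for 11 higher and 6 lower members, or 10 and 5 without the dim genes, against 21.4% and 22.4% of all genes (43.8% in either direction). The 2 comparisons share no arrays. Their values for the 67 members correlated with Pearson's r = 0.68 and Spearman's rho = 0.66 (0.73 and 0.71 over the 65 that were not dim), a description across genes that are not independent of each other, and 47 of the 65 had the same sign in both. NDUFB2, NDUFB5 and NDUFB8 rose in both, 11 members were called under erastin only and 2 in DMSO only. The difference between the comparisons is tested by the difference between the erastin responses, given below, which called no gene.

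**Figure D1:**
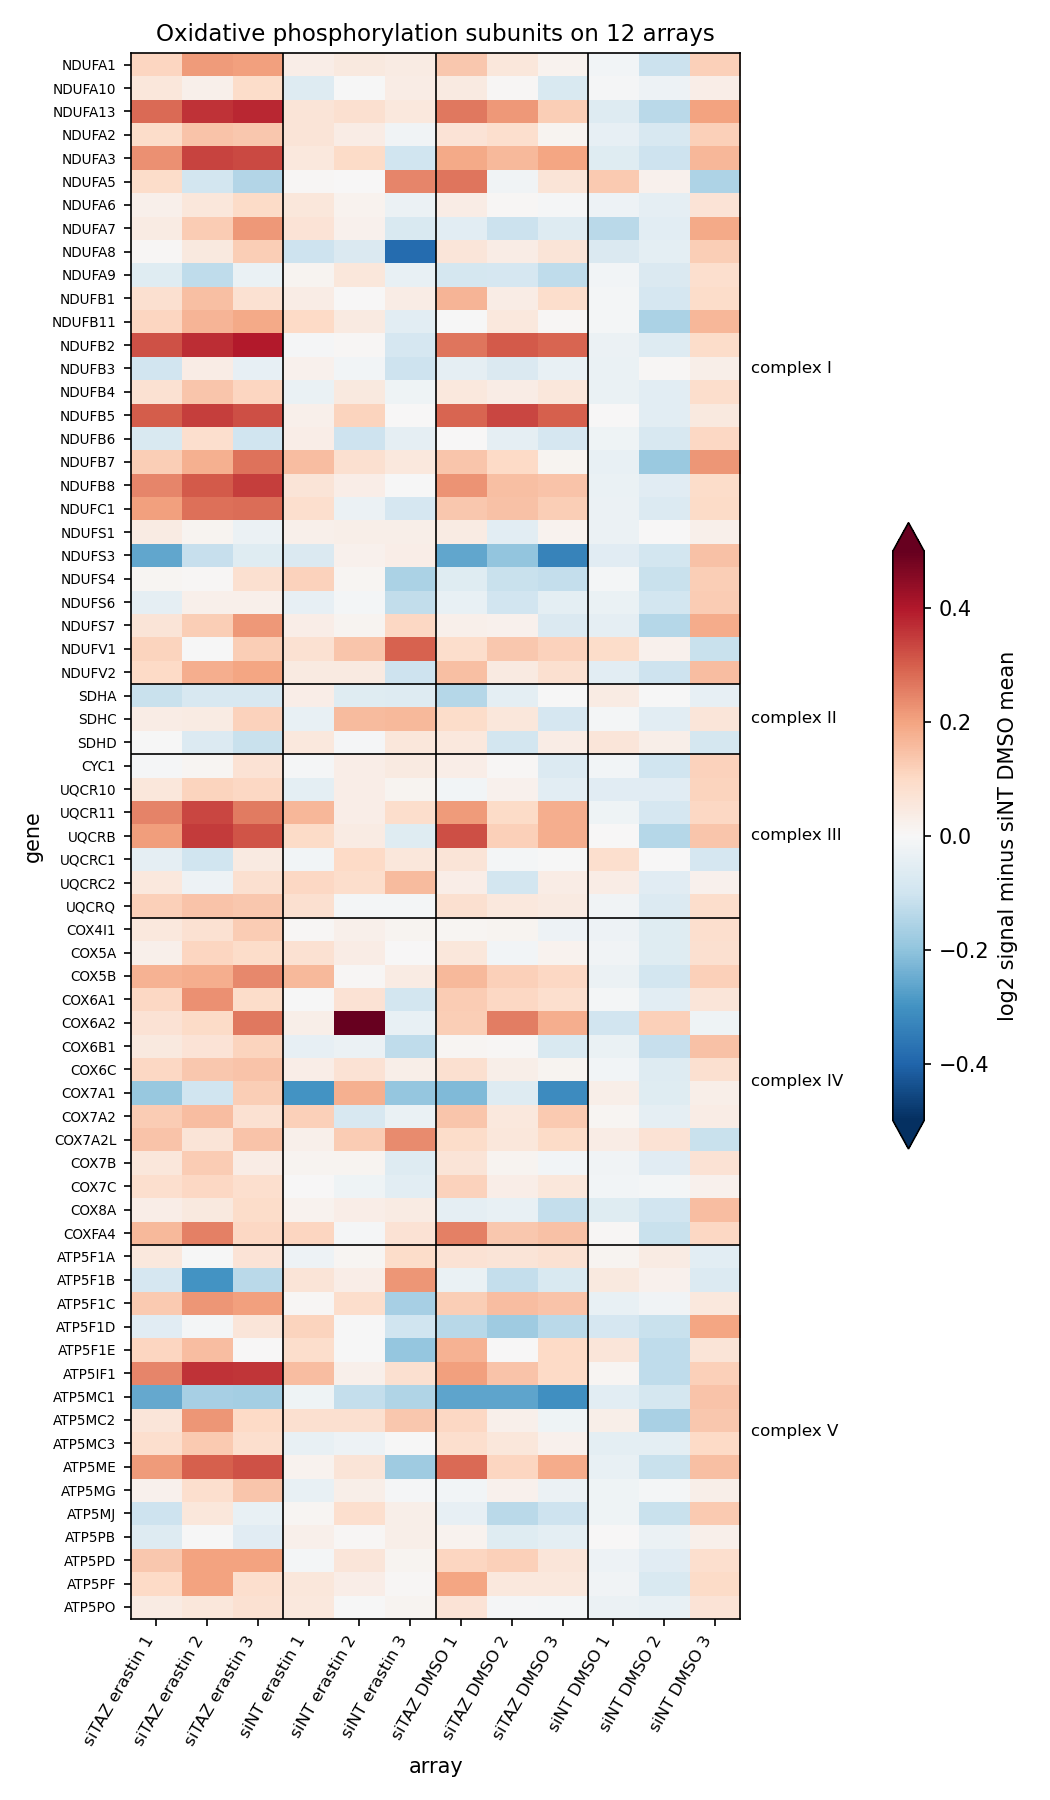
Log2 signal of 67 subunit genes (down, by complex) on 12 arrays (across, by group), each as the difference from the gene's mean on the siNT DMSO arrays; red is higher and blue lower. NDUFB2 and NDUFB5 are red on all 6 siTAZ arrays, ATP5MC1 is blue on them, complex II is pale throughout, and the third siNT DMSO array is red for most genes.

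In complex I, the complex with the most measured members, 7 of 27 rose and 0 fell under erastin, and 3 rose and 1 fell in DMSO, with medians of 0.0958 and 0.0529. The shares called were 25.9% and 14.8%, against 28.2% and 28.6% of all genes in either direction. By direction, 15.6% of all genes rose and 12.6% fell under erastin, and 14.7% rose and 13.9% fell in DMSO. The share under erastin, made up of rises only, was thus above the upward share of all genes. Of the 2894 brighter genes used above, 615 rose and 660 fell under erastin, 44.1% in either direction. Whether complex I differs from those genes was not tested. The rises in complex I were among its accessory subunits, which surround the catalytic core and are needed for assembly and stability. They were 7 of 22 (31.8%) under erastin and 3 of 22 (13.6%) in DMSO. Of the 5 measured subunits of the catalytic core (NDUFS1, NDUFS3, NDUFS7, NDUFV1 and NDUFV2) none was called under erastin and NDUFS3 fell in DMSO. Most of the 27 measured members are accessory subunits, and no test of these against the core was made.

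NDUFB2, an accessory subunit of the membrane arm, had signals of 12.62, 12.67 and 12.69 on the siTAZ erastin arrays, against 12.29, 12.30 and 12.22 on the siNT erastin arrays. In DMSO it had 12.57, 12.60 and 12.59 in siTAZ cells, against 12.27, 12.24 and 12.39 in siNT cells. All 6 siTAZ arrays lay above all 6 siNT arrays. The log2 fold change was 0.39 ± 0.05 (SE) under erastin, 1.31-fold, with an adjusted p of 0.000186, and 0.29 ± 0.05 in DMSO, 1.22-fold, with an adjusted p of 0.00162. A second probe set of the gene gave 0.38 and 0.30.

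NDUFB5, also of the membrane arm, had 11.73, 11.78 and 11.75 in siTAZ cells under erastin, against 11.46, 11.54 and 11.43 in siNT cells. In DMSO the siTAZ arrays had 11.72, 11.77 and 11.73, against 11.43, 11.38 and 11.48 on the siNT arrays. Again the siTAZ arrays lay above every siNT array in both media, by more than the whole range within any group. The gene rose by 0.28 ± 0.05 (adjusted p = 0.00124) under erastin and by 0.31 ± 0.05 (adjusted p = 0.000557) in DMSO.

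NDUFB8, a membrane arm subunit whose protein is often used as a marker of assembled complex I, had 11.74, 11.80 and 11.84 in siTAZ cells under erastin, against 11.56, 11.53 and 11.49 in siNT cells. NDUFB8 in DMSO had 11.72, 11.64 and 11.63 in siTAZ cells, against 11.46, 11.43 and 11.58 in siNT cells. The groups did not overlap in either medium, although in DMSO the gap to the third siNT array was narrow. The rise was 0.27 ± 0.06 (adjusted p = 0.00319) under erastin and 0.17 ± 0.06 (adjusted p = 0.0345) in DMSO. The call in DMSO was lost when either of the first 2 siNT arrays or any siTAZ array was left out, and with a replicate block, median centring, the mean of all probe sets or the compared groups alone, 9 of 14 alternatives in all, with fold changes over all alternatives from 0.14 to 0.22. A second probe set gave 0.30 and 0.18.

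NDUFA3, an accessory subunit of the membrane arm, had 11.41, 11.53 and 11.52 in siTAZ cells under erastin, against 11.24, 11.28 and 11.09 in siNT cells. Its DMSO signals were 11.38, 11.35 and 11.39 in siTAZ cells, against 11.12, 11.08 and 11.36 in siNT cells. The groups were apart under erastin and overlapped in DMSO through the third siNT array. The gene rose by 0.28 ± 0.08 under erastin (adjusted p = 0.0152), and in DMSO the difference was 0.18 ± 0.08 (adjusted p = 0.0969). The call under erastin was lost without the second siTAZ erastin array or without the third siNT erastin array.

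NDUFS3, a core subunit of the arm that reaches into the matrix, had 10.07, 10.21 and 10.27 in siTAZ cells under erastin, against 10.25, 10.35 and 10.36 in siNT cells. Its DMSO signals were 10.07, 10.13 and 9.99 in siTAZ cells, against 10.27, 10.23 and 10.47 in siNT cells. It was lower on every siTAZ DMSO array, with overlap between the groups under erastin. The gene fell by 0.26 ± 0.08 in DMSO (adjusted p = 0.0203) and differed by −0.14 ± 0.08 under erastin (adjusted p = 0.217). The call in DMSO was lost without the first or the third siTAZ array or the third siNT array, with values from −0.31 to −0.19 over all alternatives.

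The other rises of complex I were seen under erastin: NDUFA13, also known as GRIM-19, at 0.27 ± 0.08, NDUFC1 at 0.26 ± 0.06 and NDUFA8 at 0.25 ± 0.08. NDUFA13 was no longer called without the second or the third siTAZ erastin array or the first siNT erastin array. NDUFA8 was no longer called without any 1 of the siTAZ erastin arrays or without the third siNT erastin array, on which it was low. NDUFC1 kept its call whichever array was left out. Among members that were not called, NDUFS1, the large iron-sulfur subunit, differed by −0.02 ± 0.05 under erastin and 0.0018 ± 0.05 in DMSO, and NDUFA6 by 0.0450 ± 0.05 and 0.01 ± 0.05. A less bright probe set of NDUFA6 gave 0.20 under erastin and −0.004 in DMSO. NDUFA9 was lower in both, at −0.08 ± 0.06 and −0.10 ± 0.06, without a call.

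Complex II, succinate dehydrogenase, had no called member, against 28.2% of all genes called under erastin and 28.6% in DMSO. Its medians, over SDHA, SDHC and SDHD, were −0.06 under erastin and −0.0011 in DMSO. SDHA, the flavoprotein that oxidises succinate, had 10.02, 10.05 and 10.05 in siTAZ cells under erastin, against 10.17, 10.07 and 10.07 in siNT cells, and differed by −0.06 ± 0.05. Its siTAZ arrays were the lower ones without overlap, by a narrow gap. SDHD, a membrane anchor, differed by −0.10 ± 0.06 under erastin, and SDHC, the other anchor, by −0.03 ± 0.07. Less bright probe sets of SDHC gave −0.05, 0.02 and −0.20 under erastin, so they differed in size and sign. The confidence intervals of the 3 genes ran from −0.23 to 0.12 under erastin and from −0.18 to 0.17 in DMSO.

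In complex III, 2 of 7 members rose under erastin and none was called in DMSO, with medians of 0.0921 and 0.0182. The share called under erastin was 28.6%, against 28.2% of all genes in either direction and 15.6% upward. In DMSO 28.6% of all genes were called. UQCRB, which helps to hold ubiquinone, had 11.80, 11.95 and 11.91 in siTAZ cells under erastin, against 11.69, 11.64 and 11.53 in siNT cells, without overlap. It rose by 0.27 ± 0.08 (adjusted p = 0.0273) and had a difference of 0.21 ± 0.08 in DMSO (adjusted p = 0.0790). UQCR11, a small accessory subunit, rose by 0.18 ± 0.06 under erastin (adjusted p = 0.0462). Both calls were lost without the second or the third array of either group, and that of UQCR11 also without the first siTAZ erastin array. The core proteins UQCRC1 and UQCRC2 differed by −0.08 ± 0.06 each under erastin, and CYC1, cytochrome c1, by 0.0007 ± 0.06, none of them called. A dimmer probe set of UQCRC2 gave −0.29 under erastin, so its probe sets differed in size there.

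In complex IV, none of 14 members was called in either medium, with medians of 0.101 under erastin and 0.0544 in DMSO over its 12 well-measured members (0.0849 and 0.0544 with the dim isoforms). Of all genes, 28.2% were called under erastin and 28.6% in DMSO. Under erastin 11 of these 12 lay above 0. Their fold changes ran from −0.01 for COX7A2L to 0.15 for COX6A1 under erastin, and from −0.07 for COX8A to 0.18 for COXFA4 in DMSO. COX4I1, the ubiquitous form of subunit 4, had 12.92, 12.94 and 12.99 in siTAZ cells under erastin, against 12.87, 12.89 and 12.88 in siNT cells, a difference of 0.07 ± 0.05 without overlap between the arrays. COXFA4 had 12.53, 12.61 and 12.47 in siTAZ cells under erastin, against 12.47, 12.36 and 12.43 in siNT cells, and 12.62, 12.50 and 12.51 in siTAZ cells in DMSO, against 12.37, 12.25 and 12.47 in siNT cells. Its difference was 0.12 ± 0.07 under erastin, where the groups met at 12.47, and 0.18 ± 0.07 in DMSO (adjusted p = 0.0691), where they did not overlap. Without the third siNT DMSO array, COX5B and COXFA4 rose in DMSO, and without the first siNT erastin array COX7A2 rose under erastin.

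In complex V, the ATP synthase, 4 of 16 members rose and 1 fell under erastin, and 1 fell in DMSO, with medians of 0.0606 and 0.0444. The shares called were 31.2% and 6.25%, against 28.2% and 28.6% of all genes. By direction, 15.6% of all genes rose and 12.6% fell under erastin, and 13.9% fell in DMSO. The rises under erastin were ATP5ME, ATP5IF1, the inhibitor that binds the enzyme when the gradient fails, at 0.23 ± 0.07, ATP5F1C, the central shaft, at 0.21 ± 0.06, and ATP5PD, of the outer stalk, at 0.16 ± 0.05. Without the third siTAZ erastin array none of these 4 was called, and ATP5PD was not called whichever single array of the compared groups was left out. The calls of ATP5IF1 and ATP5F1C were also lost without the second siTAZ erastin array, and for ATP5IF1 without the second siNT erastin array and for ATP5F1C without the third. That of ATP5F1C was also lost with the mean of all probe sets, median centring or the compared groups alone. Less bright probe sets of ATP5F1C gave 0.21, 0.21 and −0.21 under erastin, so they differed in sign.

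ATP5ME, subunit e of the membrane part, had 11.60, 11.69 and 11.71 in siTAZ cells under erastin, against 11.41, 11.45 and 11.21 in siNT cells. Its DMSO signals were 11.67, 11.50 and 11.57 in siTAZ cells, against 11.35, 11.28 and 11.54 in siNT cells. The groups were apart under erastin and overlapped in DMSO. The gene rose by 0.31 ± 0.08 under erastin (adjusted p = 0.0147), and the difference in DMSO was 0.19 ± 0.08 (adjusted p = 0.111). The call was also lost without the third siNT erastin array, and a second probe set gave 0.31 and 0.22.

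ATP5F1B, the catalytic beta subunit, had 12.42, 12.21 and 12.37 in siTAZ cells under erastin, against 12.57, 12.54 and 12.72 in siNT cells. In DMSO it had 12.47, 12.38 and 12.43 in siTAZ cells, against 12.55, 12.52 and 12.43 in siNT cells. It was lower on every siTAZ erastin array, and in DMSO the groups overlapped. The gene fell by 0.28 ± 0.07 under erastin (adjusted p = 0.00977) and differed by −0.08 ± 0.07 in DMSO (adjusted p = 0.5). Its partner in the catalytic head, ATP5F1A, differed by 0.01 ± 0.05 under erastin.

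ATP5MC1, one of the genes for the c subunit of the rotor ring, had 11.05, 11.14 and 11.13 in siTAZ cells under erastin, against 11.29, 11.19 and 11.16 in siNT cells. In DMSO it had 11.04, 11.04 and 10.9997 in siTAZ cells, against 11.25, 11.22 and 11.45 in siNT cells. The siTAZ arrays were below the siNT arrays in both media, with a narrower gap under erastin. The gene fell by 0.28 ± 0.07 in DMSO (adjusted p = 0.00678), and the difference under erastin was −0.10 ± 0.07 (adjusted p = 0.310). ATP5MC2 and ATP5MC3, which encode the same mature c subunit, differed by 0.03 ± 0.08 and 0.12 ± 0.05 under erastin and by 0.03 ± 0.08 and 0.05 ± 0.05 in DMSO, without a call. ATP5MJ, a small membrane subunit, gave −0.07 and −0.09 on its brightest probe set and −0.25 and −0.49 on a dimmer one, so its change is uncertain.

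**Figure D2:**
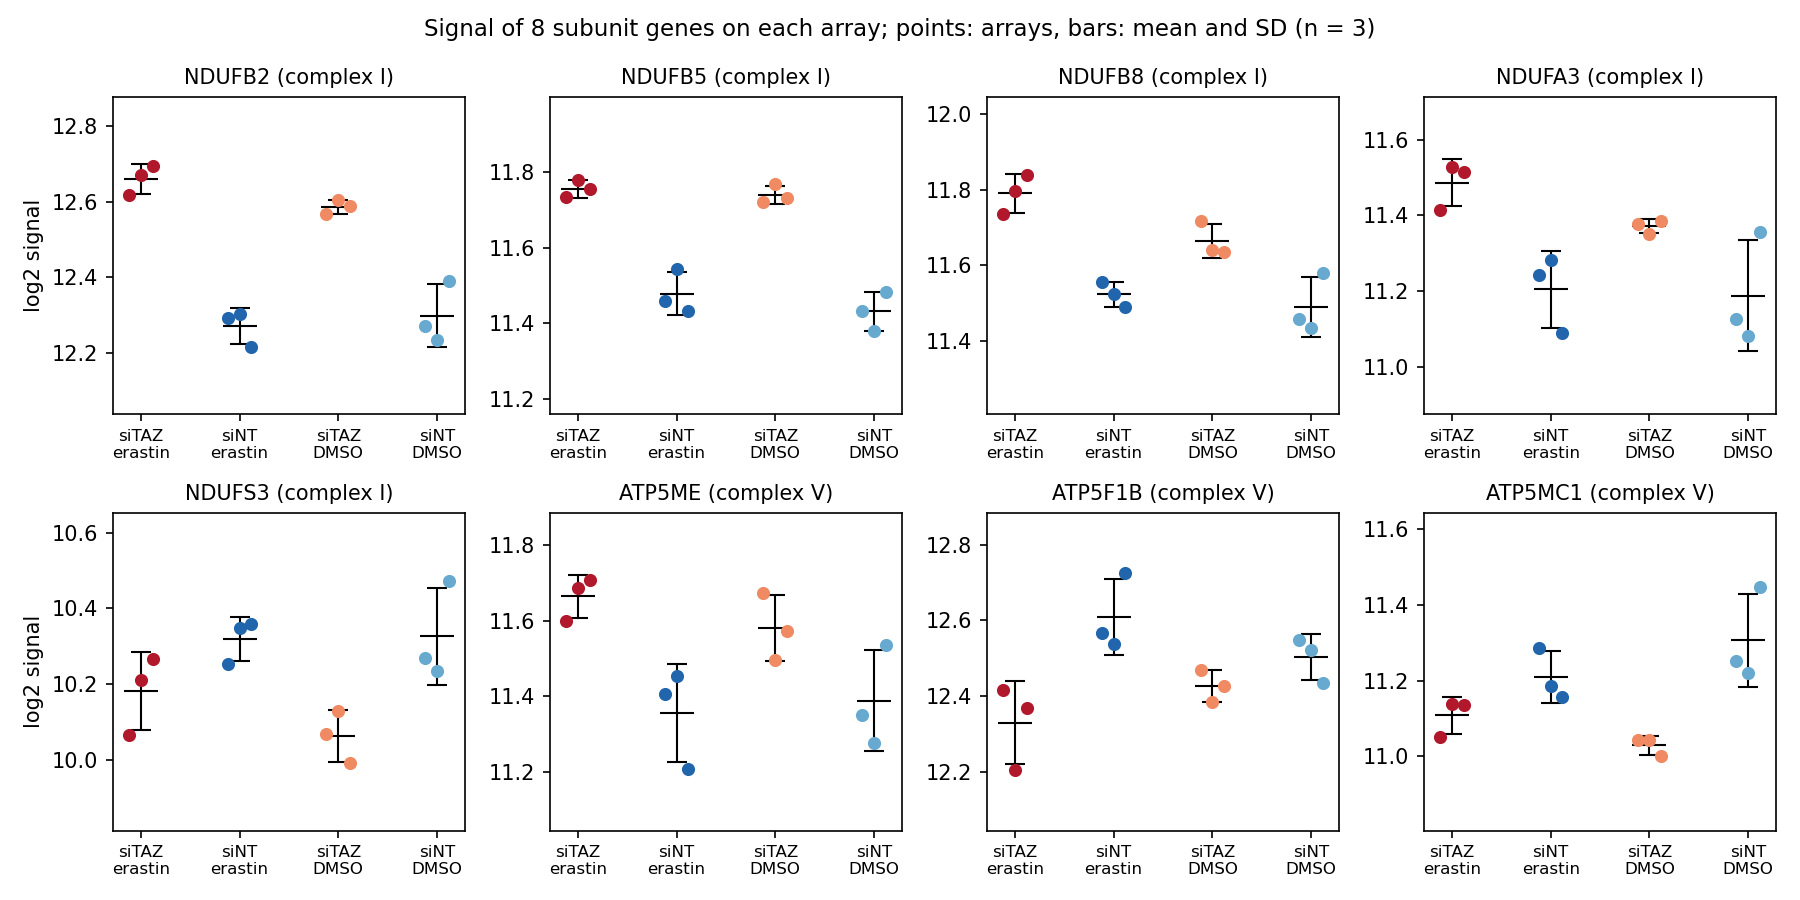
Log2 signal of 8 subunit genes on each array; points are arrays, bars the mean and SD (n = 3), and every panel spans the same log2 range. NDUFB2 and NDUFB5 are higher on all siTAZ arrays in both media, and ATP5MC1 is lower.

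A test of the siTAZ effect averaged over both media, added after the separate results were seen, called 16 rises and 3 falls among the 67 members (28.4%), against 37.9% of all genes (19.9% upward and 17.9% downward). In complex IV, COX5B, COX6A1, COX7C and COXFA4 rose in this average, by 0.09 to 0.15, and complex II again had no call. These 4 calls were lost under 12, 9, 13 and 7 of 19 alternatives in that order of genes: none of the 4 was called with median centring, with the actin covariate, or without the first siTAZ DMSO array, the second siTAZ erastin array, or the first or the second siNT DMSO array. The falls were NDUFS3, ATP5F1B and ATP5MC1. Without the third siNT DMSO array 26 members rose. No test of one complex against another was made, and complex II rests on 3 genes.

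The third siNT DMSO array stood apart for these genes. Measured as the median of the 65 well-measured members relative to the siNT DMSO mean, the siTAZ erastin arrays were at 0.0631, 0.112 and 0.0977, the siNT erastin arrays at 0.0330, 0.0283 and 0.0021, the siTAZ DMSO arrays at 0.0703, 0.0306 and 0.0175, and the siNT DMSO arrays at −0.0202, −0.0640 and 0.0925. The siTAZ erastin arrays were above all siNT erastin arrays, whereas in DMSO the third siNT array was above all siTAZ arrays. Without it, 12 members rose and 1 fell in DMSO, with 25.3% of all genes called, and the 12 included NDUFA13, NDUFA3, NDUFC1, UQCRB, UQCR11, COX5B, COXFA4, ATP5IF1 and ATP5ME. Falls in DMSO were also 1 without the first or the third siTAZ DMSO array. Under erastin, 5 members rose without the second or the third siTAZ erastin array and 6 without the third siNT erastin array.

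A sign of RNA quality moved with the groups. The signal of the actin control at the 3′ end minus that at the 5′ end, which is larger where RNA is shorter, was 3.01, 3.63 and 3.12 on the siTAZ erastin arrays, 2.82, 2.47 and 1.49 on the siNT erastin arrays, 2.62, 2.63 and 2.70 on the siTAZ DMSO arrays, and 2.40, 2.66 and 2.97 on the siNT DMSO arrays. The siTAZ erastin arrays were above all others, and the third siNT erastin array was lowest. The matching GAPDH difference was 0.16 to 0.27 on the siTAZ erastin arrays and 0.07 to 0.22 on the siNT erastin arrays, with overlap. With the actin value as a covariate, NDUFB2 and NDUFB5 were the only 2 rises under erastin, none fell, and the median was 0.0397; in DMSO 7 rose and 2 fell. The part of RNA quality in these differences was not tested beyond this fit.

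**Figure D3:**
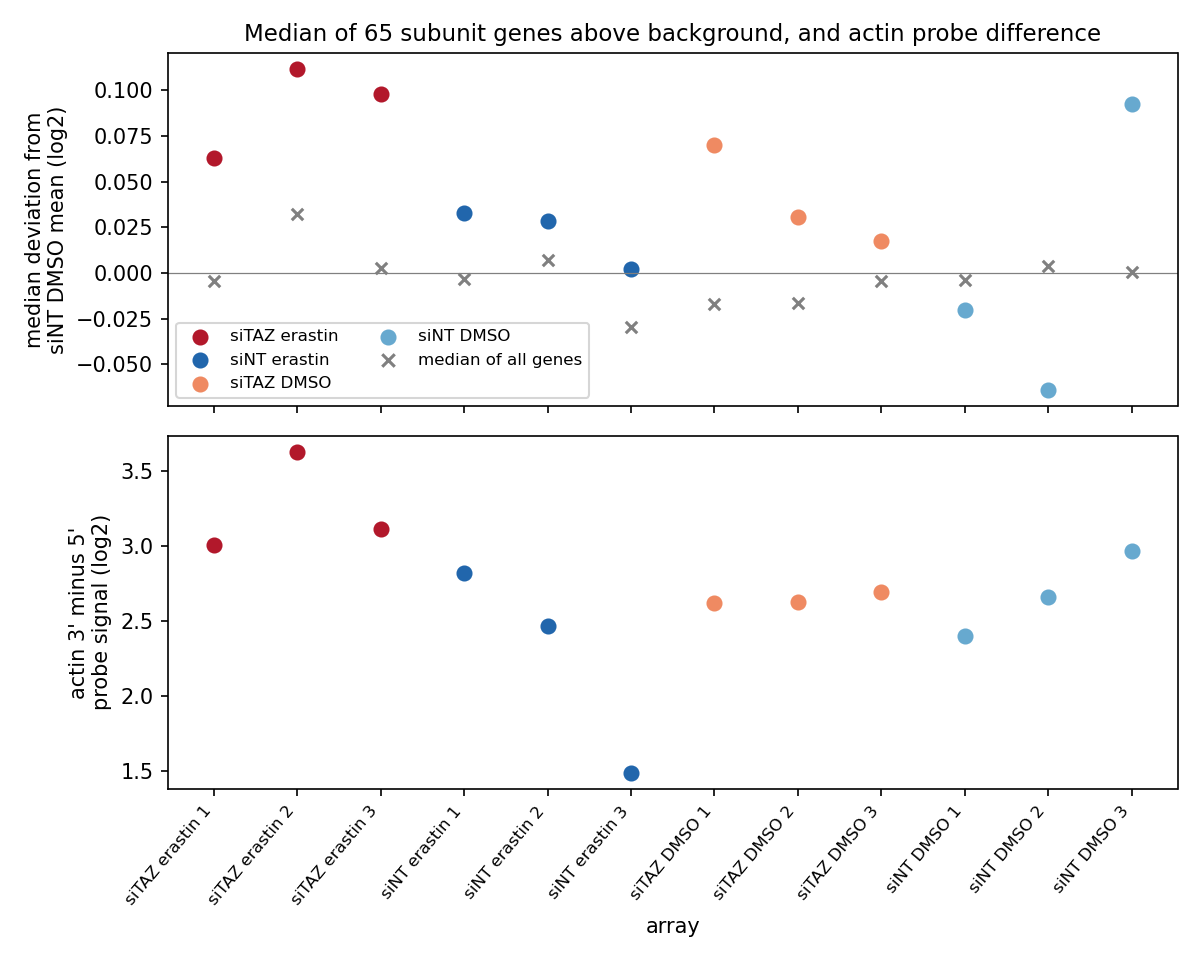
Upper panel, the median over 65 subunit genes (coloured points) and over all genes (grey crosses) of the log2 difference from the siNT DMSO mean, per array; lower panel, the log2 actin 3′ minus 5′ signal. The third siNT DMSO array is at 0.0925 in the upper panel, and the third siNT erastin array is at 1.49 in the lower one.

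The second question was whether 7 hours of erastin moved these transcripts. None of the 67 members was called with erastin against DMSO in siTAZ cells, where 0.56% of all genes were, and none in siNT cells, where 0.802% were. At an unadjusted p under 0.05 there were 3 members in siTAZ cells and 2 in siNT cells. The median was 0.0628 in siTAZ cells, with 56 of 67 above 0, and 0.0211 in siNT cells, with 43 of 67 above 0. Over the 65 well-measured members 55 and 42 were above 0, with the same medians. The median in siNT cells was −0.0156 without the second siNT DMSO array, 0.0076 without the first and 0.0622 without the third, so its direction rests on single arrays. In siTAZ cells the erastin arrays did not overlap the DMSO arrays for 23 members, all higher, against 20.7% of all genes in either direction (10.9% upward and 9.81% downward). In siNT cells this held for 1 member, higher, against 14.4% in either direction (5.92% upward and 8.52% downward). The 2 siTAZ groups were also apart in the actin 3′ minus 5′ value, at 3.01 to 3.63 with erastin and 2.62 to 2.70 in DMSO. With the actin covariate no member was called in siTAZ or in siNT cells. The part of RNA quality in these shifts was not tested beyond that fit. The confidence intervals of the 65 well-measured members ran from −0.38 to 0.38 in siTAZ cells and from −0.37 to 0.32 in siNT cells. By complex, the medians in siTAZ cells were 0.0671, −0.0247, 0.0750, 0.0533 and 0.0563 for complexes I to V, and in siNT cells 0.0146, 0.0345, 0.0245, 0.0229 and 0.0211.

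The difference between the erastin responses, siTAZ minus siNT, called 0 of 11963 genes in limma (764 at an unadjusted p under 0.05, 0 of them members). The lowest adjusted p among the members was 0.776, and their median was 0.0502. Intervals for the 65 well-measured members ran from −0.55 to 0.45, so 3 arrays a group leave room for differences inside that range. The calls that appeared under erastin only, such as ATP5F1B, are therefore not shown to differ from DMSO.

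**Figure D4:**
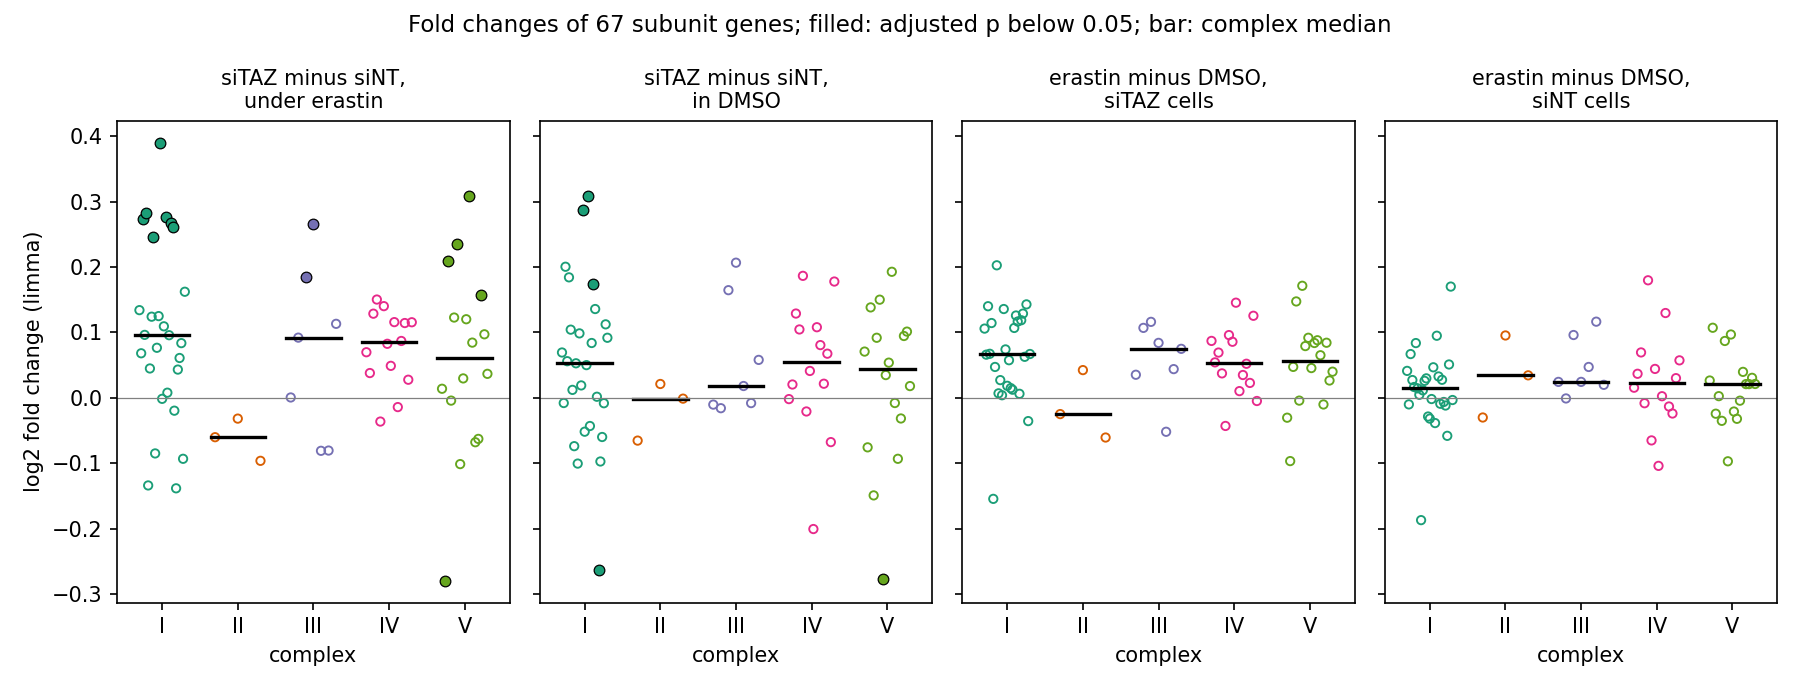
Log2 fold change (limma) of each of 67 subunit genes, by complex, in 4 comparisons; filled points passed an adjusted p of 0.05, open points did not, and bars are medians. The filled points lie in complexes I, III and V in the siTAZ comparisons, and the erastin comparisons have none.

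Genes that work with these subunits were examined as lists, in the order of their role. Their counts stand beside the shares of all genes, which were 15.6% upward and 12.6% downward under erastin and 14.7% upward and 13.9% downward in DMSO. Electron carriers and other inputs were mixed, with 2 rises and 3 falls of 14 in each medium. The rises in DMSO include the dim gene GPD2, for which no fold change is given. Its call was lost with the mean of all probe sets. CYCS, cytochrome c, differed by 0.11 in both media without a call. COQ7, a hydroxylase of ubiquinone synthesis, fell by 0.36 ± 0.10 under erastin and by 0.65 ± 0.10 in DMSO. NDUFAB1, the acyl carrier protein that is also part of complex I, rose by 0.17 ± 0.06 under erastin and differed by −0.01 in DMSO. The calls of COQ7 and NDUFAB1 under erastin were lost without the third siTAZ erastin array, and that of NDUFAB1 also without either of the other siTAZ or the second or the third siNT erastin array. With the actin covariate NDUFAB1 was not called under erastin. The counts of this list moved with nearly every array left out, to 1 to 3 rises and 0 to 2 falls under erastin and to 0 to 1 rises and 1 to 3 falls in DMSO.

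Of 29 measured assembly factors, 6 rose and 9 fell under erastin, and 4 rose and 9 fell in DMSO, with medians of −0.0580 and −0.0568. The shares called were 51.7% and 44.8%, against 28.2% and 28.6% of all genes. Among the 2894 brighter genes used above the shares were 44.1% and 45.3%, although some assembly factors were below that signal. These counts include the dim genes ATPAF2 and NDUFAF7. ATPAF2, which assembles the head of the ATP synthase, was called as a rise in both media, but no fold change is given for it. Its call under erastin was lost with the actin covariate. SDHAF3, which helps to mature the iron-sulfur subunit of complex II, fell by 0.83 ± 0.12 under erastin and by 0.67 ± 0.12 in DMSO. BCS1L, which inserts the Rieske protein into complex III, fell by 0.32 ± 0.05 and by 0.40 ± 0.05, and TMEM186, an assembly factor of complex I, by 0.31 ± 0.07 and by 0.60 ± 0.07. These 3 calls held in both media under all alternatives tried. The subunits SDHAF3 and BCS1L are known to act on in complexes II and III, SDHB and UQCRFS1, were not analysed here.

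Genes for mitochondrial DNA upkeep and transcription showed 6 falls and 0 rises of 12 in each medium, with list medians of −0.136 under erastin and −0.169 in DMSO. Of all genes, 12.6% fell under erastin and 13.9% in DMSO. TWNK, the mitochondrial DNA helicase, fell by 0.33 ± 0.07 and by 0.48 ± 0.07, and POLRMT, the mitochondrial RNA polymerase, by 0.23 ± 0.07 and by 0.37 ± 0.07. TFB1M, a methyltransferase of mitochondrial ribosomal RNA, fell by 0.19 ± 0.05 and by 0.32 ± 0.05. Falls under erastin numbered 2 without the second siTAZ erastin array, 3 without the first siNT erastin array and 2 with the actin covariate. Falls in DMSO numbered 3 without the second or the third siTAZ array or the first siNT array. The calls of POLRMT and TFB1M under erastin were lost without the second siTAZ or the first siNT erastin array, of POLRMT also without the third and of TFB1M without the first siTAZ erastin array. That of TWNK under erastin was lost with the actin covariate. Of 51 genes of the mitochondrial ribosome, which makes the subunits encoded in mitochondrial DNA, 4 rose and 12 fell under erastin, and 3 rose and 16 fell in DMSO, with medians of −0.0245 and −0.108. MRPL16 fell by 0.51 ± 0.07 and by 0.63 ± 0.07, and MRPL34 rose by 0.68 ± 0.08 and by 0.43 ± 0.08. Rises of this list under erastin were 2 without the second or the third siTAZ or the third siNT erastin array. In the mitochondrial unfolded protein response list 4 of 10 fell under erastin and 5 of 10 in DMSO, with 0 rises, against 12.6% and 13.9% of all genes that fell. The chaperonin HSPD1 of this list fell by 0.33 ± 0.04 and by 0.28 ± 0.04. Falls of that list in DMSO were 3 without the second siTAZ or the first or second siNT array.

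In the supply of electrons, 4 of 12 genes of the tricarboxylic acid cycle rose and 4 fell under erastin, and 4 rose and 2 fell in DMSO. Rises under erastin were 2 without the second or the third siTAZ or the first siNT erastin array. IDH2, the NADP-dependent isocitrate dehydrogenase, rose by 0.26 ± 0.05 under erastin and by 0.38 ± 0.05 in DMSO, while IDH3B, of the NAD-dependent enzyme, fell by 0.30 ± 0.06 and by 0.33 ± 0.06. The call of IDH3B under erastin was lost with the actin covariate. Of 12 genes of pyruvate entry, 1 rose and 3 fell under erastin, and 2 rose and 3 fell in DMSO. PDP1, the phosphatase that activates pyruvate dehydrogenase, fell by 0.62 ± 0.08 and by 0.77 ± 0.08, DLAT, the core of that enzyme, by 0.53 ± 0.08 and by 0.35 ± 0.08, and MPC1, of the mitochondrial pyruvate carrier, rose by 0.38 ± 0.05 and by 0.35 ± 0.05. Rises of this list were 2 under erastin without the second or the third siNT array, and 1 in DMSO without the first or second siTAZ or the second siNT array.

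Of 9 nuclear regulators of respiration, 2 rose and 4 fell under erastin, and 2 rose and 3 fell in DMSO. Falls under erastin were 2 without the second siTAZ or the third siNT erastin array. PPARGC1A, the coactivator PGC-1α, rose by 0.72 ± 0.08 in each medium, and its relative PPRC1 fell by 0.46 ± 0.06 and by 0.49 ± 0.06. ESRRA, a nuclear receptor that partners PGC-1α, fell by 0.30 ± 0.06 and by 0.29 ± 0.06. All 3 calls held in both media under all alternatives tried. Of 10 hypoxia-linked respiratory genes, 2 rose and 1 fell in each medium. COXFA4L2, the hypoxia-inducible relative of COXFA4, had 8.93, 8.90 and 9.21 in siTAZ cells under erastin, against 8.60, 8.55 and 8.68 in siNT cells, and 8.75, 8.90 and 8.80 in siTAZ cells in DMSO, against 8.34, 8.38 and 8.71 in siNT cells. It was higher on every siTAZ array, by 0.40 ± 0.10 (adjusted p = 0.0121) and 0.34 ± 0.10 (adjusted p = 0.0270), with calls lost without the third siTAZ erastin array and, in DMSO, without the second or the third siTAZ or the first or second siNT array. Without these arrays the rises of this list were 1 under erastin and 0 or 1 in DMSO. The COXFA4L2 call under erastin was also lost with the actin covariate. BNIP3L, a mitophagy receptor, fell by 0.86 ± 0.06 and by 0.72 ± 0.06. No gene of these lists was called for erastin against DMSO in siTAZ or in siNT cells.

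**Figure D5:**
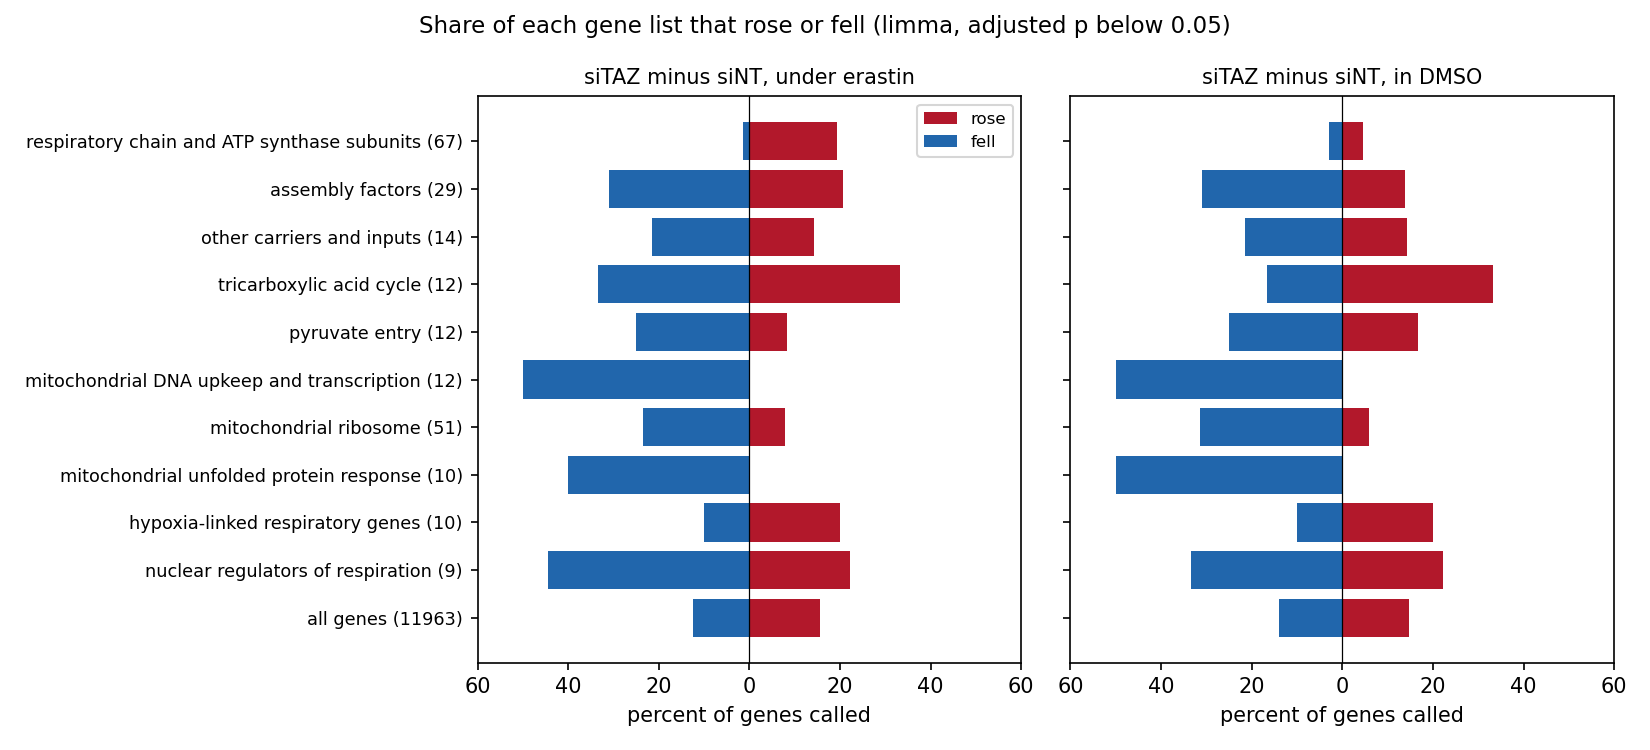
Percent of each gene list that rose (right of 0) or fell (left of 0) in siTAZ relative to siNT cells, under erastin and in DMSO; the number of measured genes is in parentheses, and all genes are the lowest bar. Among the 67 subunits 13 rose and 1 fell under erastin, and the upkeep and unfolded protein response lists have falls only.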

How the data were processed

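RNA of 12 RCC4 cultures was hybridised to Affymetrix 3′ arrays, 3 in each of 4 groups taken from the sample titles. The authors deposited one log2 signal per probe set and array. Per the submitters' processing notes, RMA and Affymetrix Expression Console were used; the sources used here give no versions. The series text also describes a comparison of siTAZ values with the siNT mean; the deposited values are not centred on the siNT arrays and were used as signals. Array medians lay between 6.48 and 6.54, as after normalisation between arrays. Of 22277 probe sets, the fits did not use 62 controls, 1043 that the platform annotation assigns to more than 1 gene and 2108 that it assigns to none, and the brightest probe set by its mean over 12 arrays stood for each of 11963 genes; 21 of the 67 members had several. The number of arrays limits the precision.

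One fit with a mean per group was made in limma 3.58.1 (R 4.3.3), with 8 residual and 3.90 prior degrees of freedom, and 5 planned comparisons plus the average siTAZ effect. With 3 arrays against 3, an exact permutation test cannot give a p under 0.1, so none was used. The steps were tested on simulated data. Members, gene lists and comparisons were chosen with earlier results of these data known, and the lists came from general knowledge. Full array values are given for the 3 largest called rises and falls per comparison and the largest called change per complex in DMSO; UQCRB, COX4I1, SDHA and COXFA4 were added after their values were seen. From each list up to 4 genes with the largest called change per comparison could be named, besides WWTR1, COXFA4L2, CYCS and NDUFAB1. Alternatives were median centring, a second quantile normalisation, a filter at the 25th percentile of signal, the mean of all probe sets, limma's trend and robust settings, the compared groups alone, a replicate block, the actin covariate and leaving out each array.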

Additional observations from a re-analysis of the deposited data

How the results depend on the processing

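The counts of called members moved with the processing, while the medians of both siTAZ comparisons and the fold changes of the called members kept their sign. Rises under erastin, 13 as reported, were 8 with arrays centred on their medians, 20 with limma's trend and robust settings and 2 with the actin covariate, which also left 0 falls and a median of 0.0397. Rises in DMSO, 3 as reported, were 8 after a second quantile normalisation, 5 with genes under the 25th percentile left out, 11 with trend and robust settings and 7 with the actin covariate. Rises in the average were 25 with trend and robust settings and 7 with the actin covariate, and the median difference between the erastin responses was −0.0184 with that covariate. The cause of these moves was not tested. Complex IV, with no call as reported, had 1 rise in DMSO and 1 or 2 under erastin with trend and robust settings, the second quantile normalisation or the filter. With the mean of all probe sets it had 1 rise under erastin, COX5B, and none in DMSO.

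Leaving out single arrays gave 5 to 12 rises under erastin, 2 to 12 rises and 1 to 2 falls in DMSO, and 12 to 26 rises in the average. Medians of the members ran from 0.0555 to 0.109 under erastin and from 0.0133 to 0.0600 in DMSO, with the lower end in DMSO reached without the second siNT array. They ran from 0.0363 to 0.0727 for the average, from 0.0472 to 0.0792 for erastin in siTAZ cells, from −0.0156 to 0.0622 for erastin in siNT cells and from −0.0002 to 0.0859 for the difference between the erastin responses. Without the third siNT DMSO array, these last values were 0.0622 and −0.0002. NDUFB2 and NDUFB5 in both media and ATP5MC1 in DMSO were called under all alternatives tried.

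Deviations of same-numbered arrays from their group means correlated at −0.417 to 0.356, with 4 of 18 pairs over 0.1. The highest, 0.356 and 0.301, were between the siTAZ erastin and siNT erastin arrays numbered 2 and 3. Arrays with different numbers were not compared, so whether replicate numbers pair the arrays was not settled. With a replicate block 10 members rose and 1 fell under erastin, 2 rose and 2 fell in DMSO, and 15 rose and 3 fell in the average. The fit of the compared groups alone was not run for the average or the difference, which use all groups.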
